A study of Mus musculus with 16 samples.

Results

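The AMPA and NMDA receptor subunits are the genes whose symbol in the deposited gene table is Gria1, Gria2, Gria3, Gria4, Grin1, Grin2a, Grin2b or Grin3a. All 8 were found among the 26625 genes of the table, and all 8 passed the filter on low counts, which left 18826 genes for testing. RNA came from the medial prefrontal cortex (mPFC) of 16 male C57BL/6 mice and was sequenced as full-length cDNA on the Nanopore platform. Of these, 3 formed the Ctrl + Saline group, 4 Ctrl + Morphine, 5 Kdm7a-shRNA + Saline, and 4 the Kdm7a-shRNA + Morphine group.

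The study's methods give an age of 8 to 10 weeks for the mice, and all carried an adeno-associated virus with EGFP injected into the mPFC on both sides. In the Kdm7a-shRNA groups the virus expressed a short hairpin RNA against Kdm7a, a histone demethylase, and the labels call these mice KDM7A knockdown. In the Ctrl groups it expressed a negative-control hairpin, and the labels give their genotype as WT. The hairpin was driven by the U6 promoter and EGFP by the CMV promoter, so that neither was restricted to 1 cell type. Morphine mice received 10 mg/kg by intraperitoneal injection on alternate days of a 10-day place conditioning, with saline on the days between. Saline mice received saline alone. The tissue was taken on day 7 of withdrawal, directly after a preference test.

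AMPA and NMDA receptors are the main ionotropic receptors for glutamate in the cortex. AMPA receptors are tetramers of GluA1 to GluA4, the products of Gria1 to Gria4, and carry most of the fast excitatory current, while GluA2, whose mRNA is edited, makes the channel nearly impermeable to calcium. NMDA receptors need the obligatory GluN1 subunit, the product of Grin1, together with GluN2 subunits such as GluN2A (also NR2A, Grin2a) and GluN2B (Grin2b) or the inhibitory GluN3A (Grin3a). They pass calcium when glutamate and depolarization coincide, and they trigger synaptic plasticity.

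Between 6596991 and 12418112 reads were counted per mouse. Kdm7a itself had only 35 to 93 counts per mouse and a level of 9.42 ± 0.353 normalized CPM (counts relative to the scaled library total; SD, n = 3) in the Ctrl + Saline, 7.72 ± 1.13 (n = 4) in the Ctrl + Morphine, 5.55 ± 0.571 (n = 5) in the Kdm7a-shRNA + Saline and 4.94 ± 1.53 (n = 4) in the Kdm7a-shRNA + Morphine group. It passed the test under saline (log2 fold change -0.76 ± 0.20 SE, edgeR adjusted p = 0.0153) and missed it under morphine (-0.67 ± 0.21, adjusted p = 0.0506). Excitatory neuron markers were present in every library, with a summed level over 10 genes of 1572 to 3979 CPM. The summed level of 8 striatal markers was 93.8 to 243 CPM.

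Per length, Gria1 had the highest mean level of the subunits in Ctrl + Saline mice and Grin3a the lowest. Dividing normalized CPM by the length of the longest coding transcript gave 42.0 ± 9.65 CPM per kb for Gria1 (SD, n = 3), 36.1 ± 6.72 for Gria2, 25.5 ± 5.83 for Grin1 and 12.9 ± 0.0431 for Gria3. Gria4 followed at 5.06 ± 0.907 CPM per kb, Grin2b at 1.91 ± 0.309, Grin2a at 1.65 ± 0.338 and Grin3a at 1.04 ± 0.330. The ranges of the 3 mice overlapped between Gria1 and Gria2, between Gria2 and Grin1, between Grin2b and Grin2a, and between Grin2a and Grin3a. This overlap cannot decide whether these neighbours differed, because all subunits were measured in the same mice. Differences within each mouse were not tested. The ranges of Grin1, Gria3, Gria4 and Grin2b did not overlap with one another. In the other 3 groups Grin1 had the highest mean per kb, at 46.5 ± 10.97 (n = 4) in Ctrl + Morphine mice, 44.7 ± 10.94 (n = 5) in knockdown mice given saline and 43.2 ± 8.99 CPM per kb (n = 4) in knockdown mice given morphine, and Grin3a had the lowest. The division by length sets this order. In normalized CPM, which counts reads whatever their length, Gria2 led in Ctrl + Saline mice with a mean of 374 CPM, above Gria1 at 233 and Grin1 at 109 CPM, and Grin2b at 45.9 CPM stood above Gria4 at 27.5 CPM.

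The genes lie on 8 chromosomes of mm10 (GRCm38, annotation GENCODE vM21). Gria1 spans chr11:57011387-57330244, Gria2 chr3:80681450-80802835, Gria3 chrX:41400854-41678601 and Gria4 chr9:4417896-4796234. Grin1 spans chr2:25291181-25319187, Grin2a chr16:9567898-9995560, Grin2b chr6:135713233-136173511 and Grin3a chr4:49661611-49845744. Gria1 and Gria3 are on the plus strand and the others on the minus strand. Grin1 has the shortest gene, of 28007 bases, the shortest coding transcript, of 4276 bases, and the highest transcript GC content, 59.4%. The transcripts of the others measure 5192 bases (Gria3) to 24060 bases (Grin2b), with a GC content of 36.8% (Gria2) to 49.2% (Grin3a).

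Knockdown under saline, the comparison of Kdm7a-shRNA + Saline with Ctrl + Saline mice, found Gria1, Gria2, Gria3 and Grin2b lower and Grin1 higher in the knockdown mice. A gene passed with an adjusted p under 0.05 over the 18826 genes and a fold change of at least 1.5. Of the 8 subunits, 4 passed lower and 1 higher, against 9.31% of all tested genes lower and 7.43% higher (16.7% in either direction). All tested genes include the authors' own loci, here and wherever a share of all tested genes is given. The subunits, the markers and the genes of the other lists are annotated genes. Among annotated genes with transcripts of over 5000 to 7000 bases, 4.37% passed lower and 3.77% higher. With transcripts of over 7000 bases 7.99% passed lower and 2.76% higher, and with over 4000 to 5000 bases 2.83% and 7.22%. Among annotated genes with a transcript GC content of over 56% to 60%, the range that holds Grin1, 1.24% passed lower and 15.2% higher. The median log2 fold change of the 8 was -0.61, and that of all tested genes 0.015. With each of the 8 compared mice left out in turn, Gria1 passed in 5 of the 8 fits, Grin1 in 6, Gria2 in 2, Gria3 in 2 and Grin2b in 1.

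Gria1, which encodes the GluA1 subunit that is delivered to synapses in potentiation, stood at 208, 294 and 197 normalized CPM in the 3 Ctrl + Saline mice. In the 5 Kdm7a-shRNA + Saline mice it stood at 160, 135, 102, 159 and 137. Every knockdown mouse was below every control mouse, and the group means were 233 ± 53.5 (SD, n = 3) and 139 ± 23.7 CPM (n = 5). Gria1 was 1.68-fold lower (log2 fold change -0.75 ± 0.23 SE, 95% interval -1.23 to -0.27, adjusted p = 0.0266). Groups did not overlap in this comparison for 12.7% of all tested genes with the knockdown mice lower and for 11.1% with them higher. Without Ctrl + Saline replicate 2, the mouse with the highest value, Gria1 had a log2 fold change of -0.54 (adjusted p = 0.169).

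Gria2, which encodes the edited GluA2 subunit, had the highest counts of the 8 in most mice. Its levels were 300.2, 383 and 439 CPM in Ctrl + Saline mice and 213, 179, 198, 363 and 232 CPM in Kdm7a-shRNA + Saline mice. Only replicate 4 of the knockdown mice reached the range of the controls. The means were 374 ± 69.7 (SD, n = 3) and 237 ± 73.0 CPM (n = 5), and Gria2 was 1.58-fold lower (log2 fold change -0.66 ± 0.20 SE, adjusted p = 0.0302). It no longer passed in 6 of 8 fits that each left out 1 compared mouse, for example without Ctrl + Saline replicate 3 (-0.55, adjusted p = 0.148).

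Gria3, which encodes GluA3, stood at 66.7, 66.9 and 66.5 CPM in the 3 Ctrl + Saline mice and at 46.3, 27.8, 34.9, 64.7 and 36.5 CPM in the 5 Kdm7a-shRNA + Saline mice. The control values were nearly equal, all knockdown values were lower, and replicate 4 of the knockdown mice was close to the controls. The means were 66.7 ± 0.224 (SD, n = 3) and 42.0 ± 14.3 CPM (n = 5), a 1.59-fold lower level (log2 fold change -0.67 ± 0.22 SE, adjusted p = 0.0371). In 6 of 8 fits with 1 compared mouse left out Gria3 did not pass, for example without Ctrl + Saline replicate 2 (-0.66, adjusted p = 0.0975). Gria4, which encodes the fourth AMPA receptor subunit, GluA4, had means of 27.5 ± 4.94 and 26.8 ± 3.40 CPM. Its log2 fold change of -0.038 had a 95% interval of -0.39 to 0.31 (adjusted p = 0.895).

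Grin1, which encodes the subunit every NMDA receptor needs, was the only member that rose. Its levels were 138, 95.8 and 93.1 CPM in Ctrl + Saline mice and 265, 149, 207, 175 and 161 CPM in Kdm7a-shRNA + Saline mice. Every knockdown mouse was above every control mouse. The means were 109 ± 24.9 (SD, n = 3) and 191 ± 46.8 CPM (n = 5), and Grin1 was 1.76-fold higher (log2 fold change 0.81 ± 0.22 SE, 95% interval 0.36 to 1.27, adjusted p = 0.0144). Without Ctrl + Saline replicate 2 the log2 fold change was 0.73 (adjusted p = 0.0679), and without replicate 3 it was 0.69 (adjusted p = 0.0887).

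Grin2b, which encodes the GluN2B subunit that binds CaMKII, stood at 43.2, 54.4 and 40.3 CPM in Ctrl + Saline mice and at 27.7, 17.4, 21.7, 46.2 and 21.9 CPM in Kdm7a-shRNA + Saline mice. Replicate 4 was again the only knockdown mouse within the control range. The means were 45.9 ± 7.43 (SD, n = 3) and 27.0 ± 11.4 CPM (n = 5), a 1.70-fold lower level (log2 fold change -0.77 ± 0.26 SE, adjusted p = 0.0419). Grin2b passed in 1 of 8 fits with 1 compared mouse left out, that without replicate 4 of the knockdown mice, and had an adjusted p of 0.177 without Ctrl + Saline replicate 2 (-0.62). Grin2a, which encodes NR2A, the subunit that becomes prominent in mature synapses, had levels of 19.3, 29.2 and 23.98 CPM against 17.9, 14.1, 13.3, 23.8 and 13.3 CPM. The groups overlapped, and Grin2a did not pass (log2 fold change -0.56 ± 0.21 SE, adjusted p = 0.0670). Grin3a, with 29 to 87 counts per mouse, had means of 7.76 ± 2.47 and 5.84 ± 1.02 CPM and did not pass (log2 fold change -0.40, 95% interval -0.93 to 0.13, adjusted p = 0.281).

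**Figure D1:**
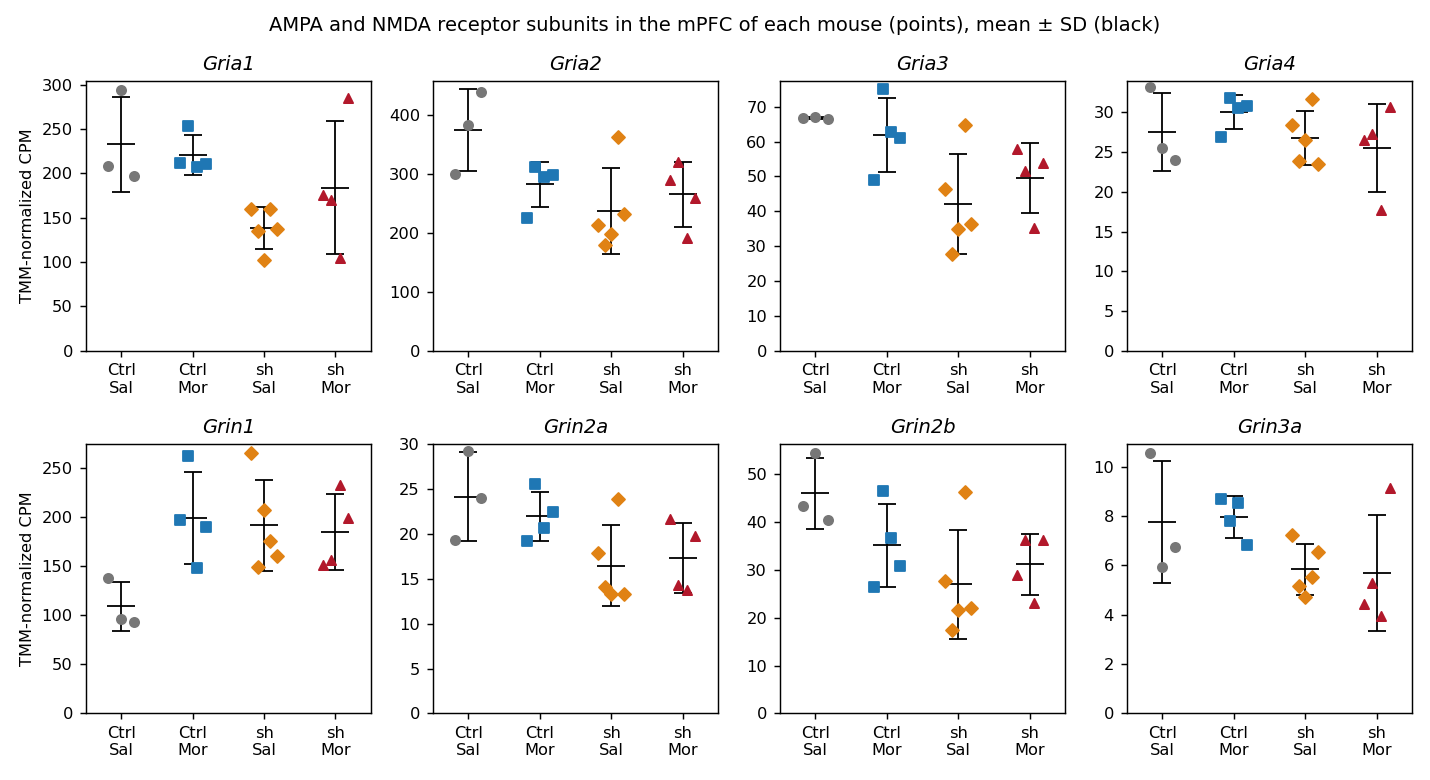
TMM-normalized CPM (vertical axes, from 0) of the 8 subunits in each of the 16 mice (points), by virus (Ctrl or Kdm7a-shRNA, sh) and treatment (saline, Sal, or morphine, Mor). Black lines give the mean ± SD of each group. Gria1 was lower in all 5 Kdm7a-shRNA + Saline mice than in the 3 Ctrl + Saline mice, and Grin1 was lowest in the 3 Ctrl + Saline mice, at 93.1 to 138 CPM.

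Because Gria2 and Grin1 moved in opposite directions, the 250 bases before their annotated starts are shown, read from RefSeq promoters of GRCm38.p6. That table held 3 of the 8 members (Gria2, Gria4 and Grin1). The sequences run 5′ to 3′ on the minus strand, Gria2 at chr3:80802836-80803085 and Grin1 at chr2:25319188-25319437. Capitals mark the motif matches named below.
Gria2: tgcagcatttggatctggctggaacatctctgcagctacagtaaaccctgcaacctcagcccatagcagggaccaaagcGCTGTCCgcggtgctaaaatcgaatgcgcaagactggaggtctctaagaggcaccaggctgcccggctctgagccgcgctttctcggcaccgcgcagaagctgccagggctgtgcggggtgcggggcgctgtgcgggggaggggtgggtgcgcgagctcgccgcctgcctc
Grin1: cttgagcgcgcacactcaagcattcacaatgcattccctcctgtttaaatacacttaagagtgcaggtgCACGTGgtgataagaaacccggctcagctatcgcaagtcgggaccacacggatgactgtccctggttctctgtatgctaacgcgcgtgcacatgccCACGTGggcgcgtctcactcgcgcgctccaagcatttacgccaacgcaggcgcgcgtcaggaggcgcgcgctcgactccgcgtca
The motifs TTCAGCACC and GGACAGC (both parts of the element bound by the neuronal repressor REST), TGACGTCA (a cAMP response element), GGGCGG (a GC box), TATAAA and CACGTG (an E-box) were searched on both strands. The Gria2 sequence held GGACAGC once, on the other strand and thus printed as GCTGTCC, at -171 to -165 from the start. The Grin1 sequence held CACGTG, which reads the same on both strands, 2 times. Among the same windows of all 32851 promoters, 5.28% held GGACAGC and 6.02% held CACGTG. TTCAGCACC was held by 0.301%, TGACGTCA by 1.55%, GGGCGG by 32.7% and TATAAA by 12.4%. The letters of these last 4 motifs were not in the Gria2 and Grin1 windows, and none of the 6 motifs was in that of Gria4. The GC content was 64.8% for Gria2 and 58.8% for Grin1 against a median of 52.4% over all promoters, and the windows held 19 and 27 CpG sites against a median of 6. No binding or methylation was measured in these libraries.

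Knockdown under morphine, the comparison of Kdm7a-shRNA + Morphine with Ctrl + Morphine mice, called none of the 8 subunits by edgeR's quasi-likelihood test, while 7.69% of all tested genes passed. None had an unadjusted p under 0.05, against 25.5% of all tested genes, and none passed by DESeq2. All 8 had a log2 fold change below 0, from -0.49 (Grin3a) to -0.090 (Gria2), with a median of -0.25 against -0.0045 for all tested genes. This lean was not particular to the 8. Of 10 other ionotropic glutamate receptor genes 8 were below 0 (median -0.43), as were 8 of 10 excitatory neuron markers (-0.27). Of 8 pan-neuronal markers 5 were below 0 (median -0.040), and of 17 AMPA receptor auxiliary genes 8 (0.0046). The values of the 2 groups overlapped for each of the 8, while 6.37% of all tested genes lay entirely above and 7.51% entirely below the Ctrl + Morphine mice. Gria1 stood at 212, 254, 207 and 210.2 CPM in Ctrl + Morphine mice and at 176, 169, 104 and 285 CPM in Kdm7a-shRNA + Morphine mice. The knockdown values thus ran from below to above all the controls, and the log2 fold change was -0.27 (95% interval -0.73 to 0.20, adjusted p = 0.492). Grin1 stood at 197, 262, 148 and 190 CPM in the controls and at 151, 157, 233 and 199 CPM in the knockdown mice, a log2 fold change of -0.11 (95% interval -0.53 to 0.32, adjusted p = 0.792).

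For Gria2 the Ctrl + Morphine mice gave 226, 311, 294 and 298 CPM and the Kdm7a-shRNA + Morphine mice 290, 321, 191 and 259 CPM. For Gria3 they gave 48.9, 75.0, 62.7 and 61.0 CPM and 57.8, 51.7, 35.1 and 53.8 CPM. For these 2 AMPA receptor subunits the log2 fold changes were -0.090 and -0.32 (adjusted p = 0.823 and 0.367). For Grin2b the values were 26.5, 46.5, 36.5 and 30.7 CPM against 29.0, 36.2, 23.1 and 36.1 CPM. For Grin2a they were 19.2, 25.5, 20.7 and 22.5 CPM against 21.6, 14.3, 13.7 and 19.7 CPM. The log2 fold changes of these GluN2 subunits were -0.17 (adjusted p = 0.714) and -0.35 (adjusted p = 0.305). Gria4 had means of 30.0 ± 2.12 and 25.5 ± 5.54 CPM (SD, n = 4 each). Grin3a had means of 7.96 ± 0.839 and 5.70 ± 2.35 CPM and passed only when Kdm7a-shRNA + Morphine replicate 4, at 9.12 CPM, was left out (log2 fold change -0.81, adjusted p = 0.0274).

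Morphine under the Ctrl virus, the comparison of Ctrl + Morphine with Ctrl + Saline mice, called none of the 8 subunits and none of the 18826 genes (0%) by edgeR's test. At an unadjusted p under 0.05 there were 1 subunit, Grin1, and 11.7% of all tested genes. All 4 Ctrl + Morphine mice were above the 3 Ctrl + Saline mice for Grin1, as was the case for 7.04% of all tested genes. The means were 199 ± 46.9 (SD, n = 4) and 109 ± 24.9 CPM (n = 3). The log2 fold change of Grin1 was 0.87 ± 0.22 SE (95% interval 0.40 to 1.34, adjusted p = 0.147). Annotated genes with a transcript GC content of over 56% to 60%, the range that holds Grin1, had a median of 0.20. The median of all tested genes was -0.014. By DESeq2, which called 190 genes, Grin1 passed (log2 fold change 0.85, adjusted p = 0.0249), and it also passed by edgeR without Ctrl + Saline replicate 1, the highest of the 3 (1.04, adjusted p = 0.0480). The other 7 subunits had log2 fold changes of -0.41 (Gria2, 95% interval -0.86 to 0.047) to 0.13 (Gria4).

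The knockdown comparison under saline and the morphine comparison under the Ctrl virus share the 3 Ctrl + Saline mice. Grin1 had the same 3 low values in both, and the mice of each of the other 3 groups had at least 148 CPM.

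Morphine under the Kdm7a-shRNA virus, the comparison of Kdm7a-shRNA + Morphine with Kdm7a-shRNA + Saline mice, called none of the 8 subunits by edgeR's test, while 1 gene of all tested passed (0.00531%). None of the 8 had an unadjusted p under 0.05, against 7.02% of all tested genes, and none passed by DESeq2. The largest log2 fold change was that of Gria1, 0.41 (95% interval -0.038 to 0.85, adjusted p = 0.742), and the lowest that of Gria4, -0.074. The values of the 2 groups overlapped for each subunit, and 0.951% of all tested genes lay entirely above and 0.988% entirely below the saline mice.

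Whether the effect of the knockdown depended on the treatment was tested as an interaction (the log2 fold change with morphine minus that with saline), which 0.085% of all tested genes passed. None of the 8 subunits passed by edgeR or DESeq2, and Grin1 alone had an unadjusted p under 0.05, against 10.7% of all tested genes. The interaction was -0.92 for Grin1 on the log2 scale (95% interval -1.54 to -0.30, adjusted p = 0.230), 0.59 for Grin2b (-0.17 to 1.35), 0.57 for Gria2 (-0.036 to 1.17) and 0.48 for Gria1 (-0.19 to 1.154). Its median was -0.24 among annotated genes with a transcript GC content of over 56% to 60%, as Grin1 has, and 0.0067 among all tested genes. The calls under saline and their absence under morphine were therefore not shown to differ.

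Averaged over both treatments, the knockdown comparison called none of the 8 subunits by the full rule, and none by DESeq2, while 17.6% of all tested genes passed. Of the 8, 7 had an unadjusted p under 0.05, against 38.8% of all tested genes. At the adjusted p alone, which 27.6% of all tested genes met, Gria1 (log2 fold change -0.51 ± 0.16 SE, adjusted p = 0.0240), Gria3 (-0.49 ± 0.15, adjusted p = 0.0214) and Grin2a (-0.45 ± 0.15, adjusted p = 0.0282) were lower. Their fold changes of 1.42, 1.41 and 1.37 were under the threshold of 1.5. Morphine averaged over both viruses called none of the 8 and none of the tested genes (0%) by edgeR, and none of the 8 by DESeq2. Grin1 alone had an unadjusted p under 0.05, against 8.36% of all tested genes, and had the largest value (log2 fold change 0.41, unadjusted p = 0.0116, adjusted p = 0.506).

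**Figure D2:**
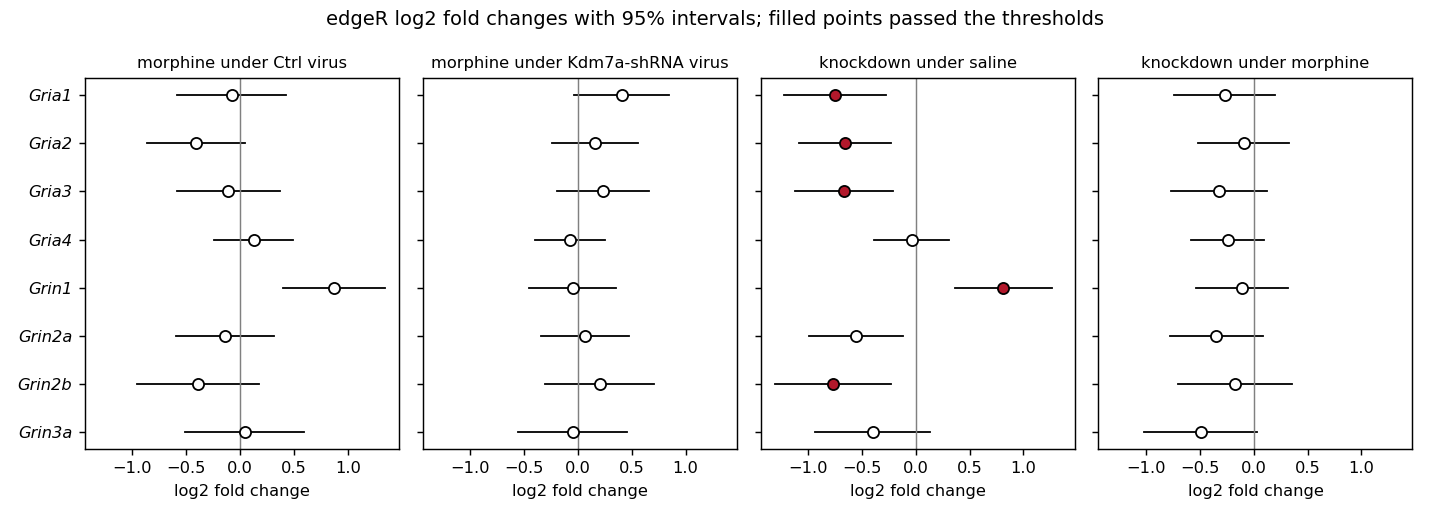
Log2 fold changes of the 8 subunits (points) with 95% intervals (lines) from edgeR in the 4 pairwise comparisons. Horizontal axes give the log2 fold change, and filled points passed the thresholds. The 5 filled points are all in the knockdown comparison under saline, with Grin1 at 0.81 and Gria1, Gria2, Gria3 and Grin2b between -0.77 and -0.66.

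Levels of several subunits were related to the composition of the libraries. The share of a library's reads on annotated transcripts of over 5000 bases, counted without the 8 subunits, was 11.8 ± 0.868% (SD, n = 3) in Ctrl + Saline, 11.7 ± 0.360% (n = 4) in Ctrl + Morphine, 10.04 ± 0.699% (n = 5) in Kdm7a-shRNA + Saline and 10.5 ± 0.831% (n = 4) in Kdm7a-shRNA + Morphine mice. All transcripts of the members but that of Grin1 are over this length. Across the 16 mice the log2 level of Gria1 correlated with this share at r = 0.933 (permutation p = 1e-05, the smallest that 100000 permutations can give; adjusted over 16 relations 5.33e-05) and Spearman's rho = 0.938 (permutation p = 1e-05). Without the 2 mice farthest from the median share, r was 0.905. Within the 7 Ctrl mice it was 0.961 and within the 9 Kdm7a-shRNA mice 0.897.

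Grin2a gave r = 0.919 (permutation p = 1e-05, rho = 0.806, permutation p = 0.00029), with 0.852 and 0.867 within the 2 viruses and 0.878 without the 2 farthest mice. Grin2b gave r = 0.831 (permutation p = 0.00012, rho = 0.709, permutation p = 0.00325), with 0.601 and 0.847 within the viruses and 0.758 without the 2 farthest mice. For Gria3 r was 0.863 (permutation p = 1e-05, rho = 0.768, permutation p = 0.00086), with 0.326 among Ctrl and 0.876 among Kdm7a-shRNA mice and 0.867 without the 2 farthest mice. Gria2, Gria4 and Grin3a had r between 0.539 and 0.714. Among the Ctrl mice their r was 0.289, -0.316 and -0.638, and among the Kdm7a-shRNA mice 0.722, 0.766 and 0.566. Grin1 had r = -0.287 (permutation p = 0.282, rho = -0.212, permutation p = 0.432), and 0.020 without the 2 farthest mice. The permutations exchanged all 16 mice, so that their p-values also take in differences between the groups. After removal of the group means, r with the share was 0.886 for Gria1, 0.874 for Grin2a, 0.789 for Grin2b and 0.724 for Gria3. It was 0.589 for Gria2, 0.557 for Gria4, 0.259 for Grin3a and -0.0022 for Grin1. The mean GC content of the reads' transcripts, 50.7% to 51.5% per library, was related to Grin1 at r = 0.700 (permutation p = 0.00278, rho = 0.609, permutation p = 0.0145). Within the Ctrl and the Kdm7a-shRNA mice r was 0.825 and 0.473, and after removal of the group means 0.518. It was 0.373 without the 2 mice farthest from the median GC content. These were Ctrl + Saline replicates 2 and 3, with Grin1 at 95.8 and 93.1 CPM. Gria1, Gria2, Gria3, Grin2a and Grin2b were related to GC content at r = -0.717, -0.839, -0.728, -0.757 and -0.748. Gria4 and Grin3a had r = -0.264 and -0.266.

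**Figure D3:**
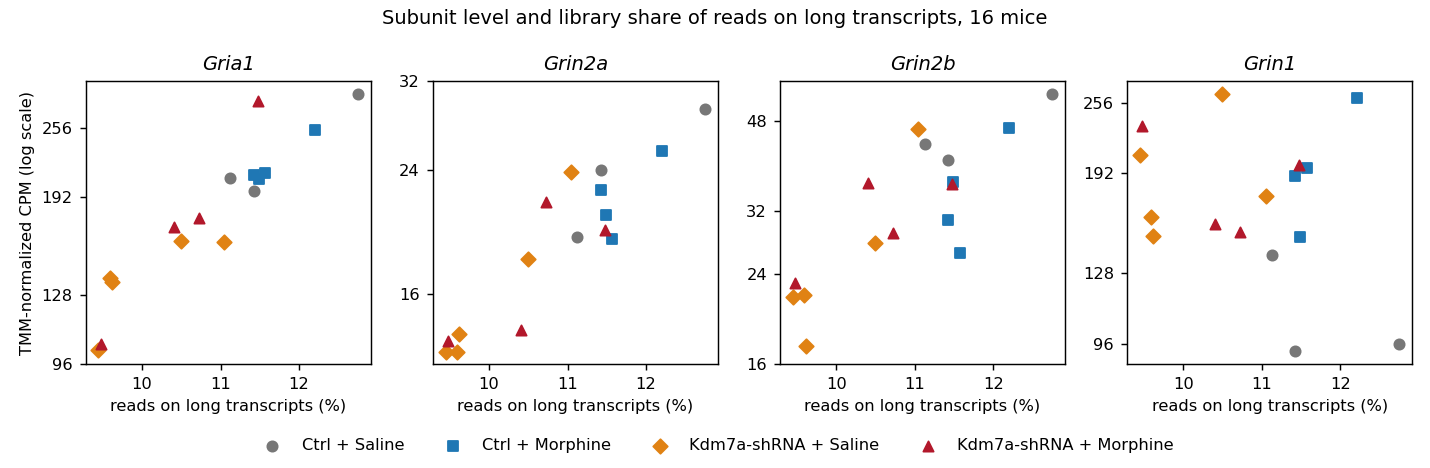
TMM-normalized CPM on a log scale (vertical axes) of Gria1, Grin2a, Grin2b and Grin1 against the percentage of a library's reads on transcripts of over 5000 bases (horizontal axes) in the 16 mice, marked by group. Gria1, Grin2a and Grin2b were higher where the share was higher (r = 0.933, 0.919 and 0.831), which was not seen for Grin1 (r = -0.287).

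With this share as a covariate in the fit, its own coefficient had an adjusted p under 0.05 for Gria1, Gria3, Grin2a and Grin2b and for 13.5% of all tested genes. In that fit the knockdown comparison under saline called none of the 8 subunits and 1270 of all tested genes. Gria1 then had a log2 fold change of 0.059 (adjusted p = 0.892), Gria2 -0.21, Gria3 -0.12 and Grin2b -0.036, while Grin1 had 0.81 (adjusted p = 0.0884). The share is itself an outcome of the same libraries and had lower means in the Kdm7a-shRNA groups, so that the virus and the share cannot be fully told apart in these mice. With counts corrected within each mouse for the length and GC content of annotated transcripts, 1 of the 5 calls remained, Gria1 (log2 fold change -0.68, adjusted p = 0.0451). Grin1 then missed the fold threshold (0.58, adjusted p = 0.0413), and Gria2 had -0.35 (adjusted p = 0.149), Gria3 -0.59 (adjusted p = 0.0670) and Grin2b -0.44 (adjusted p = 0.179). In the uncorrected fit, 7.99% of 1339 annotated genes with transcripts over 7000 bases passed lower and 2.76% higher, against 1.77% and 13.9% of 2707 genes with transcripts of over 1000 and up to 2000 bases.

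**Figure D4:**
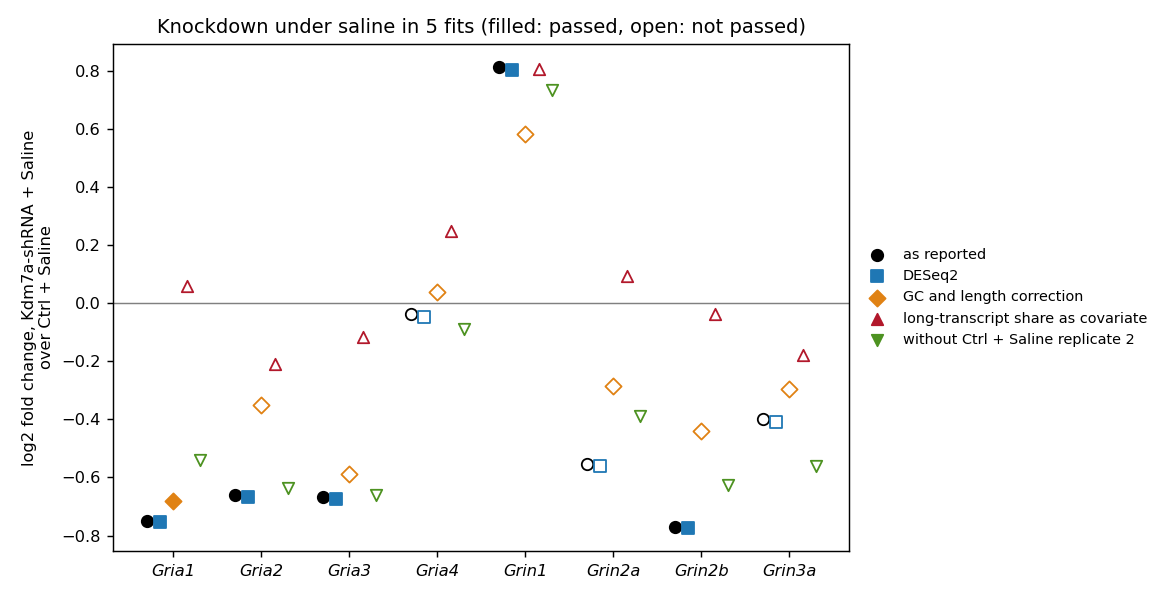
Log2 fold change of Kdm7a-shRNA + Saline over Ctrl + Saline (vertical axis) of each subunit in 5 fits, with filled symbols for those that passed. Grin1 stayed between 0.58 and 0.81, while Gria1 ran from -0.75 as reported to 0.059 with the long-transcript share as covariate, and without Ctrl + Saline replicate 2 no subunit passed.

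Some cell type markers passed in the knockdown comparisons as well. Of all tested genes, 7.43% passed higher and 9.31% lower under saline, and 7.69% passed in either direction under morphine. The calls of 1 of 8 pan-neuronal and 1 of 10 excitatory neuron markers under saline were near these shares. The shares include the authors' own loci, which are not among the markers. Among annotated genes alone, 1.73% to 7.99% passed lower and 2.76% to 13.9% higher under saline, depending on transcript length. Of 8 microglia markers 7 rose under saline and 5 under morphine. Their summed level ran from 820.1 to 989 CPM in Ctrl + Saline, 438 to 948 CPM in Ctrl + Morphine, 1328 to 3987 CPM in Kdm7a-shRNA + Saline and 867 to 3843 CPM in Kdm7a-shRNA + Morphine mice. C1qb, a complement gene of microglia, was at 138 ± 19.5 CPM (SD, n = 3) in the Ctrl + Saline and 569 ± 246 CPM (n = 5) in the Kdm7a-shRNA + Saline group (log2 fold change 2.04, adjusted p = 0.00652). Of 8 pan-neuronal markers, 1 fell under saline (Map2, a dendritic cytoskeleton gene, log2 fold change -0.64, adjusted p = 0.0487), and their sum was 2867 to 3546 CPM in Ctrl + Saline and 2071 to 3407 CPM in Kdm7a-shRNA + Saline mice. Of 10 excitatory neuron markers 1 rose (Nrgn, which encodes the calmodulin-binding neurogranin, 1.48, adjusted p = 0.0141), while 7 of the 10 had a log2 fold change below 0 and their median was -0.13. The interneuron markers went both ways under saline, with 4 of 8 lower and 2 higher and a sum of 499.9 to 562 CPM against 335 to 446 CPM. Under saline 2 of 8 astrocyte, 0 of 8 oligodendrocyte, 1 of 4 oligodendrocyte precursor and 3 of 6 endothelial markers were higher and none lower. None of these markers was at 0 in all mice. Fewer cells of a type and less RNA per cell cannot be told apart in bulk tissue, and the part of cell composition in the subunit results was not tested.

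The 2 subunit ratios that follow do not depend on the scaling between libraries. The log2 ratio of Grin2a to Grin2b counts, a measure of NR2A against NR2B transcripts, was -0.94 ± 0.21 (SD, n = 3) in Ctrl + Saline, -0.65 ± 0.22 (n = 4) in Ctrl + Morphine, -0.66 ± 0.23 (n = 5) in Kdm7a-shRNA + Saline and -0.85 ± 0.38 (n = 4) in Kdm7a-shRNA + Morphine mice. The difference was 0.038 between the viruses (two-sided exact permutation p = 0.801 over 3920 exchanges within treatments) and 0.052 between the treatments (exact permutation p = 0.720 over 4410 exchanges within viruses). The log2 ratio of Gria1 to Gria2 was -0.69 ± 0.41, -0.35 ± 0.20, -0.75 ± 0.34 and -0.59 ± 0.50 in the same order of groups. It differed by -0.15 between the viruses (exact permutation p = 0.416) and by 0.25 between the treatments (exact permutation p = 0.201). All 4 adjusted p-values were 0.801. Neither ratio passed for a difference averaged over the other factor. The mean Grin2a to Grin2b ratio was higher with morphine under the Ctrl virus and lower with morphine under the Kdm7a-shRNA virus. These opposite directions offset each other in the averages. Differences within 1 virus or 1 treatment were not tested for the ratios.

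Among Gria1, Gria2, Gria3, Gria4, Grin2a and Grin2b, all pairs had positive correlations of log2 CPM over the 16 mice after removal of the group means, from 0.41 between Gria1 and Gria2 to 0.91 between Gria3 and Grin2b. Grin3a had 0.60 with Gria4 and 0.56 with Gria1, but -0.058 with Gria2 and -0.013 with Grin2a. Grin1 had correlations of -0.35 (Gria2) to 0.28 (Grin3a) with the others. These are descriptions, since the points share library composition.

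The genes most like each member by the same measure, outside the 8, were Chml (0.91) and Arpp21 (0.91) for Gria1, 2610301B20Rik (0.94) and Gabrb2 (0.93) for Gria2, Nicn1 (0.97) and Eno2 (0.95) for Gria3, and Ubtd2 (0.91) and Krt12 (0.89) for Gria4. For Grin1 they were Agpat1 (0.91) and Tesk1 (0.91), for Grin2a Plxna4 (0.94) and Abi2 (0.93), for Grin2b Zfr (0.94) and Rab3c (0.94), and for Grin3a Pygo1 (0.88) and H1fx (0.85).

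Of the 10 other ionotropic glutamate receptor genes, which include rarer NMDA receptor subunits and kainate receptor subunits, 1 fell and 1 rose with the knockdown under saline. This was near the 16.7% of all tested genes, which include the authors' own loci. Grik1, which encodes the kainate receptor subunit GluK1, had 12.2 ± 2.37 CPM (SD, n = 3) in Ctrl + Saline and 6.91 ± 1.49 CPM (n = 5) in Kdm7a-shRNA + Saline mice (log2 fold change -0.82 ± 0.21 SE, adjusted p = 0.0135). It also fell under morphine, from 10.4 ± 2.08 (n = 4) to 5.82 ± 1.24 CPM (n = 4; log2 fold change -0.85 ± 0.22 SE, adjusted p = 0.0213). Grik5, which encodes the high-affinity kainate subunit GluK5, was higher under saline alone, at 25.9 ± 6.07 against 16.5 ± 4.48 CPM (log2 fold change 0.64 ± 0.21 SE, adjusted p = 0.0362). The difference between the treatments was not called for either gene.

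The others did not pass in any pairwise comparison. Under saline the log2 fold changes were 0.35 for Grin2c and -0.49 for Grin2d, which encode GluN2 subunits, -0.34 for Grin3b (2 to 11 counts per mouse), -0.44 for Grik2, -0.25 for Grik3, 0.84 for Grik4 (adjusted p = 0.0680) and -0.27 for Grid1. Grik4, a kainate subunit gene with 11 to 65 counts per mouse, had the largest value with morphine under the Ctrl virus (1.28, adjusted p = 0.138).

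None of the 17 tested genes for AMPA receptor auxiliary subunits, such as the stargazin family, passed in any comparison, nor did any of 5 genes for extracellular clustering proteins or of 8 genes for RNA editing and splicing factors. In the knockdown comparison under saline the medians of these 3 lists were 0.10, -0.043 and 0.088 on the log2 scale. Of 13 receptor trafficking partners, 1 passed when the knockdown was averaged over treatments, against 17.6% of all tested genes. None of the 13 passed under saline or under morphine. The 1 that passed was Grip1, a scaffold that binds GluA2 and GluA3, which was lower (log2 fold change -0.65 ± 0.19 SE, adjusted p = 0.0155). Of 17 kinases and phosphatases that act on the receptors, 2 fell and 1 rose under saline and none passed under morphine, against 16.7% and 7.69% of all tested genes. Prkca, which encodes protein kinase C alpha, fell from 18.9 ± 3.04 to 12.2 ± 2.17 CPM (adjusted p = 0.0230). Cdk5r1, the activator of Cdk5, fell from 159 ± 12.1 to 102 ± 26.6 CPM (adjusted p = 0.0183). Ppp1r1a, an inhibitor of protein phosphatase 1, rose from 16.5 ± 9.89 to 30.7 ± 6.71 CPM (adjusted p = 0.0345).

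Of 13 tested genes that handle glutamate, glutamine and the NMDA receptor co-agonists glycine and D-serine, 2 rose under saline, 2 under morphine and none fell, against 16.7% and 7.69% of all tested genes that passed in either direction. Shmt2, the mitochondrial enzyme that interconverts serine and glycine, rose under saline from 11.4 ± 3.10 (SD, n = 3) to 37.5 ± 5.88 CPM (n = 5; log2 fold change 1.72 ± 0.26 SE, adjusted p = 0.000549). Slc7a10, a transporter of D-serine and glycine, rose from 11.9 ± 1.57 to 18.9 ± 4.06 CPM (log2 fold change 0.66, adjusted p = 0.0233). Under morphine Slc38a1, a glutamine transporter, rose from 48.8 ± 4.85 to 73.3 ± 5.19 CPM (log2 fold change 0.59 ± 0.12 SE, adjusted p = 0.00954). Slc6a9, the glycine transporter GlyT1, rose from 38.3 ± 3.27 to 72.4 ± 23.3 CPM (log2 fold change 0.92, adjusted p = 0.0188).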

How the data were processed

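The mPFC of 16 mice was analysed. Per the paper's methods, the authors removed reads of low quality or under a minimum length and ribosomal reads, kept full-length non-chimeric cDNA reads, clustered them on mm10 with minimap2 and Pinfish, and merged them with cDNA Cupcake. The submitters' processing notes name edgeR 3.8.6. The deposited counts are the authors' whole-number read counts per gene, without normalization. The deposited CPM values are the authors' counts relative to each column total, match that calculation within 4.99e-06, and were not tested. Reads were counted per gene, so that splice and editing variants are not separated.

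Testing used edgeR 4.0.16 under R 4.3.3 (filterByExpr, TMM factors, quasi-likelihood test, 1 fit with 1 coefficient per group). Adjusted p-values are Benjamini-Hochberg values over 18826 genes from edgeR unless another test or fit is named, and standard errors come from the F statistic. Fits with a mouse left out, with the compared groups alone or with another filter adjusted over the genes left in that fit. Those with the GC and length correction adjusted over annotated genes only. Normalized CPM values are divided by the TMM-scaled library size. Levels of different genes were compared per kb of transcript. Transcript lengths and positions are from GENCODE vM21, which gave a length for 75.2% of the tested genes, 99.99% of the tested known genes and 8 of 8 members, so that length and GC checks are void for the authors' own loci. Alternatives were RLE factors, library size only, no filter, at least 10 counts in every mouse, the compared groups alone, DESeq2 1.42.0, a replicate block, the adjusted p alone and each mouse left out. Annotated genes only, the correction for GC and length, and the long-transcript covariate were added after the data had been seen. Deviations from the group means of same-numbered mice correlated at over 0.1 in all 3 pairs of Ctrl + Saline with Ctrl + Morphine mice and not in all pairs of any other 2 groups. The edgeR test was also run on simulated counts, for the knockdown comparison under saline only. These counts held no trend with transcript length or GC content, so that they cannot tell how such trends affect the calls.

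The subunits and the gene lists were chosen with earlier results of these data known. Named were all 8 subunits, the other ionotropic receptor genes (1 of the 10 is not reported here), up to 4 genes of each further glutamate list with the smallest adjusted p among those that passed, Kdm7a, up to 3 genes of marker lists, and the 2 genes most like each subunit; Map2 and Nrgn were named after their values were seen. Counts of 29 (Grin3a) to 3927 (Gria2) per mouse lie behind the members' values. Protein sequences were not used here.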

Additional observations from a re-analysis of the deposited data

Results flagged for a closer look

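In groups of 4 or 5 mice, a mouse was noted when its gap to the nearest other mouse, relative to the range of its group, exceeded Dixon's 95% value. Chance gives about 1 in 20 groups such a mouse, and 2 of 30 groups had one here. Gria1 was at 253.9 CPM in Ctrl + Morphine replicate 2, against a group median of 211 CPM (a gap of 0.897 of the range). Gria2 was at 362.8 CPM in Kdm7a-shRNA + Saline replicate 4, against a group median of 213 CPM (a gap of 0.714). Without this mouse the log2 fold change of Gria2 under saline was -0.86 (adjusted p = 0.00239).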

How the results depend on the processing

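Under saline, where 5 subunits passed, the count was 3 with only the compared groups in the fit (Gria1, Gria2 and Grin1), 1 with the GC and length correction (Gria1), 1 with that correction and the replicate block, and 0 with the long-transcript covariate, in which Gria1 turned from -0.75 to 0.059. The cause was not tested. Leaving out 1 mouse gave 0 to 6. It gave 0 without Ctrl + Saline replicate 2, 1 without Ctrl + Saline replicate 3 or Kdm7a-shRNA + Saline replicate 2 or 3, 2 without replicate 5, 3 without replicate 1, and 6 without replicate 4 of the Kdm7a-shRNA + Saline mice, when Grin2a passed as well. Over 28 alternatives Gria1 passed in 24, Grin1 in 23, Gria2 in 19, Gria3 in 18 and Grin2b in 15. These alternatives include fits without a morphine mouse, which is not in this comparison. With 1 of the 8 compared mice left out, the same genes passed in 5, 6, 2, 2 and 1 of 8 fits. The knockdown averaged over treatments, with 0 calls, had 3 with library size only, 3 at the adjusted p alone, 1 with the replicate block (Gria1, log2 fold change -0.60) and 0 to 2 with 1 mouse left out (2 without Kdm7a-shRNA + Morphine replicate 4 and 2 without Kdm7a-shRNA + Saline replicate 4). Morphine under the Ctrl virus, with 0 calls, had 1 by DESeq2 and 0 to 1 with 1 mouse left out. Knockdown under morphine had 0 to 1 with 1 mouse left out. The difference in the Grin2a to Grin2b ratio ran from -0.033 to 0.12 between viruses and from -0.019 to 0.13 between treatments with 1 mouse left out, on both sides of 0.

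Same-numbered mice of different groups deviated together at r of -0.10 to 0.39 over 21 pairs, above 0.1 in 6, including all 3 pairs of Ctrl + Saline with Ctrl + Morphine mice (0.11 to 0.21). The replicate block left morphine under the Ctrl virus at 0 calls (Grin1 0.91, adjusted p = 0.185) and the count under saline at 5. Library size only shifted the median of all genes by -0.13 under saline and -0.11 under morphine. Over all genes, 3151 calls under saline became 1852 with at least 10 counts in every mouse, 1377 among annotated genes, 1123 with the GC and length correction and 1424 to 3730 with 1 mouse left out. Under morphine 1448 became 697, 424, 393 and 568 to 2066, and 685 with only the compared groups. The knockdown averaged over treatments gave 3316 calls, and 1525, 1409 and 1320 under the first 3 of these settings and 1607 with the covariate. The 16 calls of the interaction became 227 by DESeq2 and 0 to 266 with 1 mouse left out. The groups of 3 to 5 mice and the few counts of Grin3a, Grin3b and Grik4 limit what could be detected, and counts per gene do not separate flip and flop or edited transcripts.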
